A study of Bos taurus with 2 samples.

Results

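The genes described here are 57 peptide hormones, their receptors and follistatin, a binding protein, chosen by name for their part in appetite, growth, lactation, reproduction and water balance and matched to probes through the array's gene names and RefSeq accessions. Of these, 56 had at least 1 probe on a bovine oligonucleotide array, with 110 probes among the 16888 named genes and 43653 distinct probes of the array; MC3R had none. Whole blood RNA from Holstein cattle (Bos taurus) was labelled with Cy3, a green dye, and read on 1 array for low feed efficiency and on another for high feed efficiency. A low feed efficiency animal has a high residual feed intake, which means that it eats more than its size and production call for. Age, sex, diet and the number of animals behind a specimen are not given in the labels, and no treatment or genotype is named for either group. Differences are on the log2 scale, the low efficiency sample minus the high efficiency one. Since 1 array stands for each group, they carry no test, no p-value and no check by replicates.

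Peptide hormones are made as longer precursors, cut to size and secreted by specialised cells of the gut, adipose tissue, hypothalamus, pituitary and gonads. They act through receptors on distant cells, most of which are coupled to G proteins. Blood carries the finished peptides from gland to target, but the array reads messenger RNA, here from the cells in the blood. The values below are thus not hormone concentrations. In whole blood, fewer cells of a type and less RNA per cell cannot be told apart.

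An intensity here is the pixel median of a spot less the background of the array, in scanner units. A probe counted as above background when this value exceeded 10.9, the median of the 153 negative control spots plus 3 robust SDs, on the array in question, and a gene is called measured when a probe of it passed on both arrays. The negative controls themselves lay between -4 and 9 in the low and between -5 and 32 in the high efficiency sample. Brightness depends on the probe as well as on the RNA, so levels of different genes are not compared. For differences each array was divided by its 75th percentile, 98 in the low and 81 in the high efficiency sample. Of the blood cell markers with a probe, 10 of 14 erythroid, 9 of 10 neutrophil, 8 of 8 T cell, 6 of 6 B cell, 7 of 7 monocyte and 5 of 5 platelet genes were above background on both arrays. Their median log2 differences were 0.07 for erythroid, 0.13 for neutrophil, -0.15 for T cell, -0.10 for B cell, -0.21 for monocyte and -0.44 for platelet markers. By the brightest probe of each, ALAS2, an enzyme of haem synthesis in red cell precursors, was the 1 blood cell marker at least 2-fold apart, at 112 against 248, a difference of -1.42.

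Many of the hormone and receptor genes gave no signal above background in blood. Above background on both arrays were 22 of the 56 genes (39.3%), while 61.2% of all named genes were. Another 5 passed in low feed efficiency alone, against a background of 4.57% of named genes, and 1 passed in high feed efficiency alone, against 1.57%. The remaining 28 were below background on both arrays, as were 32.5% of named genes. Counted by probe, 28 of 110 were above background on both arrays (25.5%), against 51.0% of all 43096 probes kept. Hormones passed more often than receptors: 16 of 32 hormones and 5 of 23 receptors were above background on both arrays, a description with no test.

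**Figure D1:**
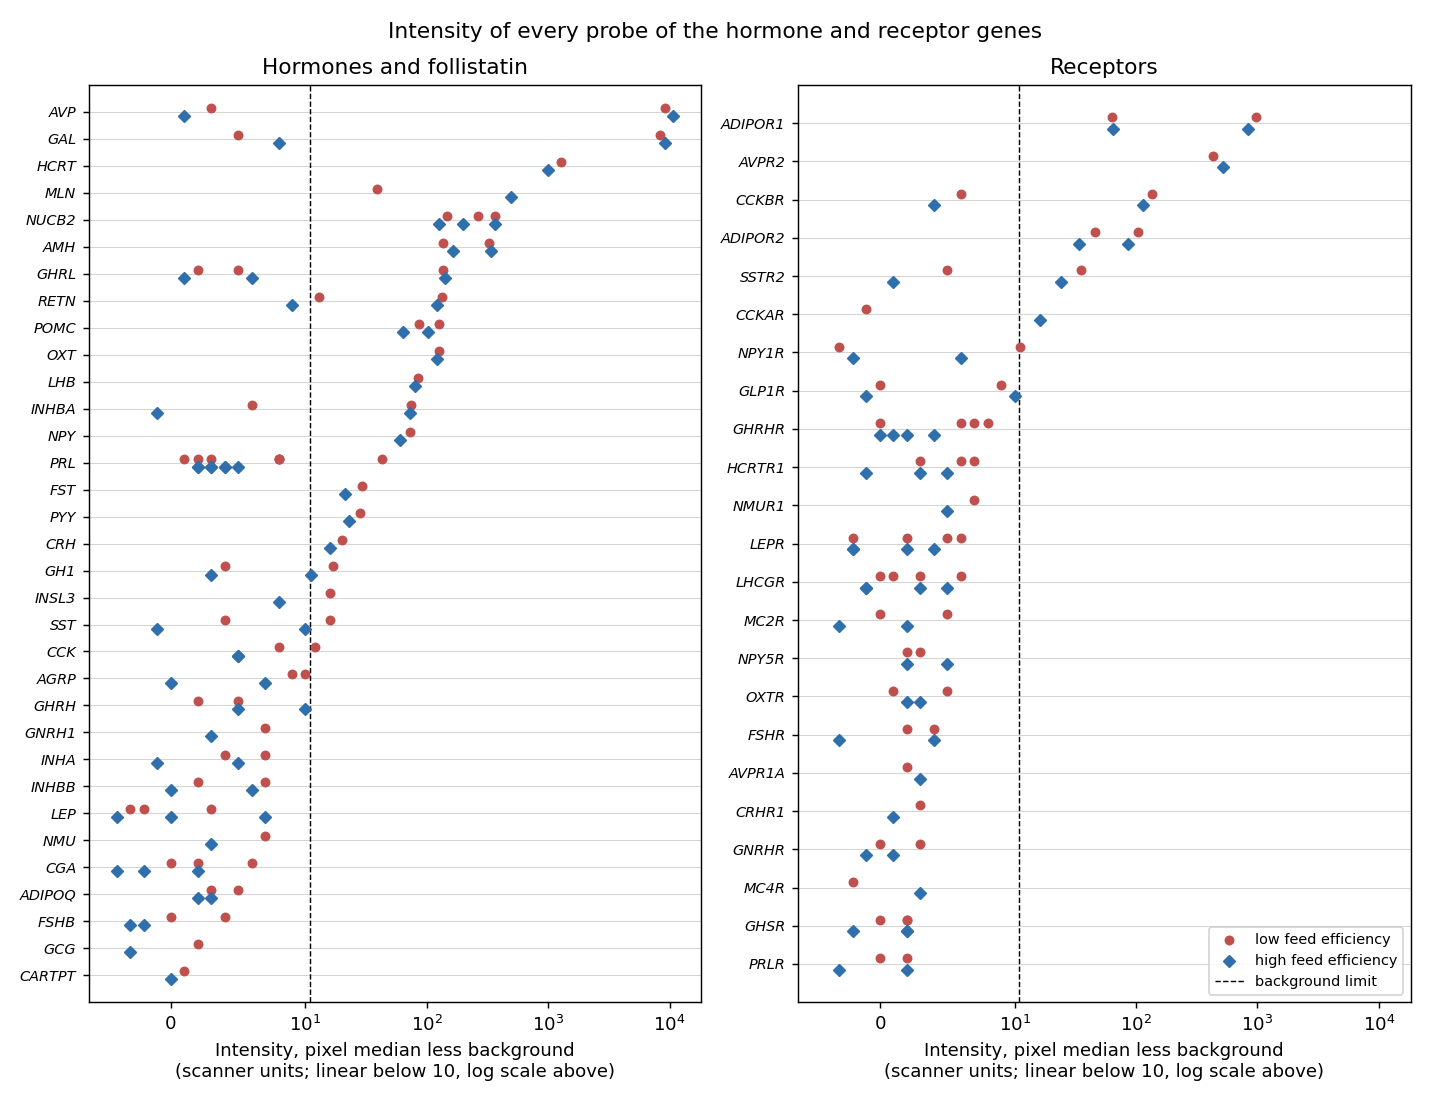
Intensity of each of the 110 probes (pixel median less background, scanner units, linear below 10 and logarithmic above) in the low feed efficiency sample (red circles) and the high feed efficiency sample (blue diamonds), 1 array each, for hormones with follistatin on the left and receptors on the right. The dashed line is the background limit of 10.9; rows are ordered by the brightest reading for legibility, and several genes, AVP and GAL among them, have 1 probe far to the right of the line and another to its left.

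**Figure D2:**
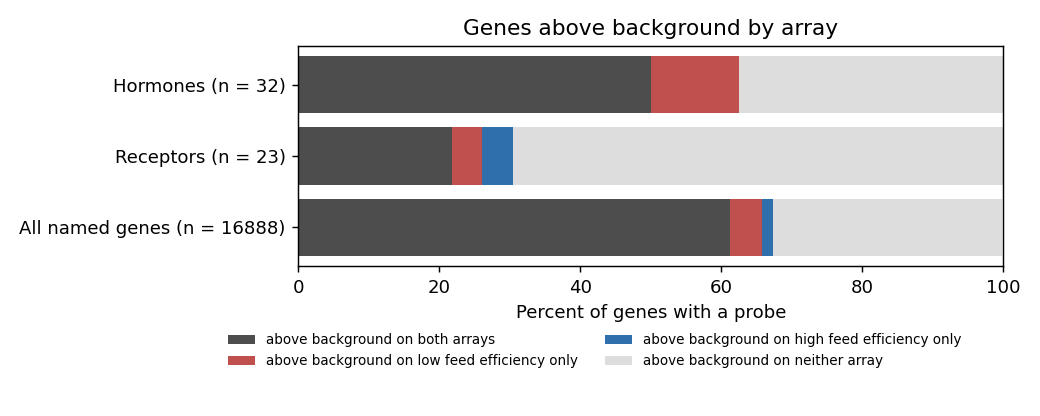
Percent of genes with a probe that were above background on both arrays, on 1 array or on neither, for 32 hormones, 23 receptors and all 16888 named genes. The share above background on both arrays is 50% for hormones, 21.7% for receptors and 61.2% for all named genes.

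MLN encodes motilin, which sets off the contractions of the empty stomach and small bowel. Its single probe read 39 in low against 490 in high feed efficiency, a log2 difference of -3.93, or 15.2-fold lower in low feed efficiency. It was the 1 measured member at least 2-fold lower, beside 0.571% of the 10339 measured genes, and no measured member was at least 2-fold higher, beside 0.368%. At 4-fold MLN was again the 1 member, among 7 genes that lay as far below.

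The reading rests on 1 uneven spot, and the part of this unevenness in the difference was not tested. In the high efficiency sample the 80 pixels of the MLN spot had a mean of 2956 over background with an SD of 4019, so that the mean was 6.03 times the median. Of 3786 probe spots on that array with a median within 2-fold of it, 4 (0.106%, itself included) had a ratio as high, and the typical ratio was 1.01. The spot was not flagged good by the scanner software, and its local background was 28. The medians of the 6 nearest spots ran from 15 to 78 in the low efficiency sample, against 14 to 67 in the high efficiency sample. In low feed efficiency the mean and the median of the MLN spot were both 39 over 52 pixels, with an SD of 16, and the spot was flagged good. Across the 21 other member probes that were above 50 on both arrays, the ratio of mean to median lay between 0.932 and 1.10. With the pixel mean in place of the median the MLN difference was -6.49. Normexp background correction, which was also run on the pixel mean, gave -5.17. When only spots flagged good were used MLN had no value. Of 15 intestinal epithelium markers with a probe, 2 were above background on both arrays, with a summed intensity of 159 in low against 141 in high feed efficiency. After scaling the sums were 1.62 in low against 1.74 in high. The 2 genes were LGALS4 (74 against 47, 0.38) and ALPI (85 against 94, -0.42); FABP2 passed in low feed efficiency alone (15 against 7), and the other 12, the defining genes VIL1 (2 against -2), CDX2 (4 against 9) and FABP1 (2 against 3) among them, were below background on both arrays.

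**Figure D3:**
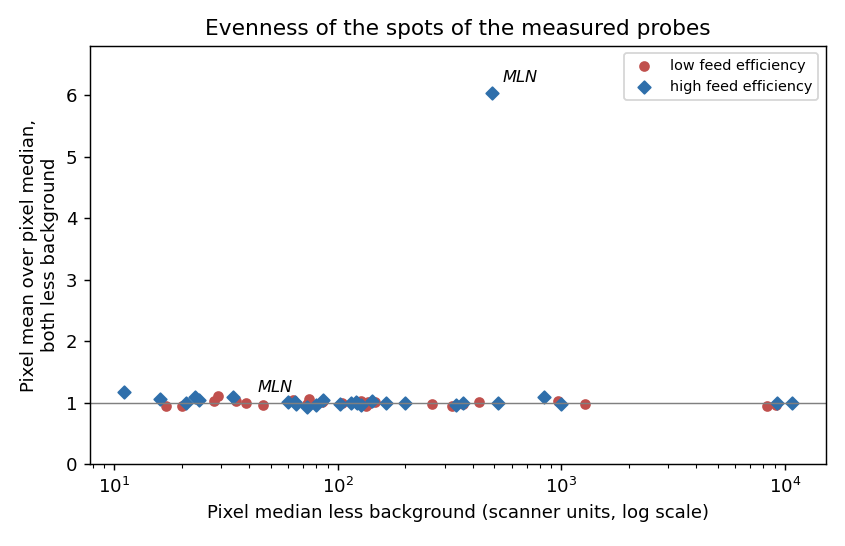
Ratio of pixel mean to pixel median, both less background, against the pixel median (scanner units, log scale) for the 28 member probes above background on both arrays, in low (red circles) and high feed efficiency (blue diamonds). The MLN spot of the high feed efficiency sample lies at 6.03, and the MLN spot of the low feed efficiency sample at 1 among the rest.

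Of the other gut hormones, GHRL and PYY were measured. GHRL encodes ghrelin, the hunger hormone of the stomach; 1 of its 3 probes read 136 in low against 142 in high feed efficiency, a difference of -0.34, and the other 2 lay below background at 2 to 5 in low against 1 to 6 in high. PYY, a satiety peptide of the lower bowel, read 28 against 23, close to the limit, with a difference of 0.01. CCK, which encodes the satiety and gall bladder hormone cholecystokinin, passed in low feed efficiency alone, at 12 against 5, too near the limit for a fold. Proglucagon (GCG), the precursor of glucagon and GLP-1, read 2 against -3.

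Of the adipose hormones, leptin and adiponectin were not detectable at this sensitivity. The 3 probes of LEP, the signal of fat stores, and the 2 of ADIPOQ, an insulin-sensitising hormone, were all below the limit, at 7 or less. Resistin (RETN), an adipocyte hormone in mice that in humans comes mainly from monocytes and macrophages, was measured. One of its probes read 133 in low against 121 in high feed efficiency, a difference of -0.14, and the other 13 against 9, above background in low feed efficiency only. Of 9 adipocyte markers with a probe 4 were measured. These were PPARG at 54 against 47, LPL at 50 against 41, CIDEA at 27 against 22 and LIPE at 22 against 20. Their summed intensity was 153 in low against 130 in high feed efficiency, or 1.56 against 1.60 after scaling. Another 4, the adipocyte genes PLIN1 (6 against 3) and FABP4 (3 against 2) with LEP and ADIPOQ, were below background on both arrays. CIDEC passed on each array, at a different probe.

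Of the appetite neuropeptides, GAL, HCRT, NUCB2, POMC and NPY were measured. GAL encodes galanin, which stimulates feeding in rodents. Its probe to the reference transcript read 8300 in low against 9189 in high feed efficiency, a difference of -0.42, on spots the software left unflagged. A second GAL probe, designed on a sequence outside RefSeq, read 5 against 8, below background on both arrays. The single probe of HCRT, which encodes the wakefulness and appetite peptides called orexins, read 1279 against 998, a difference of 0.08. NUCB2, a calcium-binding protein that is also the precursor of nesfatin-1, was above background at all 3 probes, at 362, 264 and 146 in low against 361, 199 and 127 in high feed efficiency. Their differences lay between -0.27 and 0.13, on both sides of 0. POMC, the precursor of corticotropin, melanocortins and beta-endorphin, read 127 against 102 (0.04) and 86 against 64 (0.15). NPY, the main feeding signal of the arcuate nucleus, read 73 against 60, a difference of 0.01. AGRP, CARTPT and NMU were below background on both arrays.

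Vasopressin and oxytocin, made from neighbouring genes, were both above background. A probe for AVP, which encodes the water-retaining hormone, read 9134 in low against 10750 in high feed efficiency, a difference of -0.51. The other AVP probe read 3 against 1, although the array assigns both to 1 reference transcript. OXT, the gene of the milk let-down hormone, read 125 against 122, a difference of -0.24. Corticotropin-releasing hormone (CRH) was near the limit at 20 against 16, with 0.05. SST, the gene of the growth hormone inhibitor somatostatin, passed in low feed efficiency alone at 16 against 10 (at least 1.20-fold higher). Both SST readings were near the limit, and the bound takes no account of error within an array. GNRH1 and GHRH, which drive gonadotropin and growth hormone release, were below background.

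Probes of 1 gene disagreed in this way for other genes too. Of 13 members with 2 or more probes and at least 1 above background on both arrays, 7 had another probe above on neither (AVP, CCKBR, GAL, GH1, GHRL, INHBA and SSTR2). Among all named genes the share was 41.6% of 7364. Among the 324 such genes with a probe over 5000 on both arrays it was 23.1%.

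Of the pituitary hormones, LHB and GH1 were measured. LHB, the beta chain of luteinizing hormone, read 85 in low against 80 in high feed efficiency, with a difference of -0.19, while CGA, the alpha chain it pairs with, was below background at all 3 probes. One growth hormone (GH1) probe read 17 against 11, the second value just over the limit, with a difference of 0.35, and the other read 4 against 3. The GH1 difference was -0.10 with normexp background correction, run on the pixel mean, and 0.05 with the pixel mean alone. Its direction was thus not settled. Prolactin (PRL), the hormone of lactation, had 7 probes. One read 43 in low against 3 in high feed efficiency, at least 3.23-fold higher. That spot in the low efficiency sample was outlined on 12 pixels with a mean of 633 over background and an SD of 1431, and the mean was 14.7 times the median; what part this unevenness has in the reading was not tested. The remaining 6 lay between 1 and 8 in low feed efficiency, and between 2 and 5 in high feed efficiency, below background on both arrays. FSHB, the beta chain of follicle-stimulating hormone, was below background. Of 12 pituitary markers with a probe, 4 of which are hormones named here, 3 were measured. These were GH1, POMC and the transcription factor PITX1 (54 against 45). PRL passed in low feed efficiency alone. The other 8, the lineage factor POU1F1 (1 against -2) and CGA among them, were below background on both arrays.

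Gonadal hormones and follistatin gave 3 measured genes among 6. AMH, the anti-Mullerian hormone of the fetal testis and the ovarian follicle, was above background at both probes, at 324 and 136 in low against 339 and 164 in high feed efficiency. The differences were -0.34 and -0.54. INHBA, the subunit of activin A, read 74 against 73 at 1 probe (-0.26) and 6 against -1 at the other, and FST, which binds and blocks activin, read 29 against 21 (0.19). The inhibin subunits INHA and INHBB were below background. INSL3, a Leydig cell peptide, passed in low feed efficiency alone at 16 against 8 (at least 1.20-fold higher). That bound takes no account of error within an array, and with 2 robust SDs in place of 3 INSL3 passed on both arrays.

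Of the receptors, 5 were measured. The adiponectin receptors ADIPOR1 and ADIPOR2 were above background at every probe: 965 and 63 in low against 839 and 65 in high feed efficiency for ADIPOR1, and 104 and 46 against 86 and 34 for ADIPOR2. Their brightest probes differed by -0.07 and -0.0007 and the second probes by -0.32 and 0.16. AVPR2, the receptor through which vasopressin acts on the kidney, read 429 in low against 520 in high feed efficiency, a difference of -0.55. CCKBR, which binds gastrin and cholecystokinin, read 136 against 115 (-0.03) at 1 probe and 6 against 4 at the other. SSTR2, a somatostatin receptor, read 35 against 24 (0.27) at 1 probe and 5 against 1 at the other. CCKAR, the satiety receptor for cholecystokinin, passed in high feed efficiency alone, at -1 in low against 16 in high (at least 1.76-fold higher in the high feed efficiency sample). That spot was unflagged and uneven, with a mean of 26 over background and an SD of 36, and it did not pass with 5 robust SDs in place of 3. NPY1R, a neuropeptide Y receptor, passed in low feed efficiency alone at 11 against 6, too near the limit for a fold.

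The other 16 receptors with a probe were below background, among them the melanocortin receptors MC2R and MC4R, the oxytocin receptor OXTR, the prolactin receptor PRLR, the leptin receptor LEPR at all 4 probes (6 or less) and the ghrelin receptor GHSR at all 3 (2 or less). Across the 28 genes below background on both arrays, 58 probes had a median of 3 in low against 2 in high feed efficiency, and none exceeded 10 on either array. The highest readings were those of AGRP (10 against 7), GHRH (5 against 10), GLP1R (9 against 10) and GHRHR (8 against 1), followed at 7 by GNRH1, HCRTR1, INHA, INHBB, LEP, NMU and NMUR1.

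In 24 matched pairs of hormone and receptor, drawn up with their values known, AVP with AVPR2 was the 1 pair with both above background on both arrays, where 50% of hormones and 21.7% of receptors passed taken singly. In 11 pairs the hormone alone was measured, as for GHRL, HCRT, OXT and LHB, and in 4 the receptor alone, as for the adiponectin receptors. In 6 of the other 8 pairs hormone and receptor were both below background on both arrays, as for LEP and LEPR.

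Among genes measured on both arrays, the 21 other than MLN lay between -0.55 (AVPR2) and 0.35 (GH1), and 19 of all 22 lay within 0.5 of 0, beside 90.5% of all measured genes. The median of the 22 was -0.11, and of all measured genes -0.04; 12 members lay below that of all genes and 10 above it. Below 0 were 14 of the 22, beside 55.6% of all genes. Error within an array was gauged from probes printed several times: over such spots the log2 difference had an SD of 0.15 among 12 bright probes and of 0.34 among 25 dim probes. These SDs are pooled over probes, and the median SD of a probe was smaller, 0.10 among bright and 0.18 among dim probes. By the pooled SDs 4 members, AVP, AVPR2, GAL and MLN, lay more than 2 SDs from the median of all genes, beside 13.9% of all genes. All 4 were lower in low feed efficiency, beside 7.54% of all genes that lay as far below. By the median SDs the count was 8, with AMH, GHRL, NUCB2 and GH1 added, beside 33.7% of all genes, and GH1 was the 1 of these that was higher. GAL lay within 2 pooled SDs under loess and under quantile normalization, while AVP and AVPR2 lay beyond them under each alternative tried. Replicate spots do not hold the variation between animals or between labelling reactions.

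Members with brighter probes tended to lower values. Of 9 members above the median signal of measured genes, 8 were below 0 with a median of -0.34, beside 61.5% of all genes in that range, whose median was -0.07. MLN is among the 9 through its reading in high feed efficiency alone, and without it 7 of 8 were below 0, again with a median of -0.34. The 395 genes with intensities over 5000 on both arrays had a median of -0.17, and AVP and GAL, the members among them, had -0.51 and -0.42. Under loess normalization, which removes a trend with brightness, these were -0.38 and -0.30. Scaling on spike-in controls added 0.36 to every difference, after which 4 of the 22 were below 0 in place of 14; AVP, AVPR2, GAL and MLN were those 4.

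**Figure D4:**
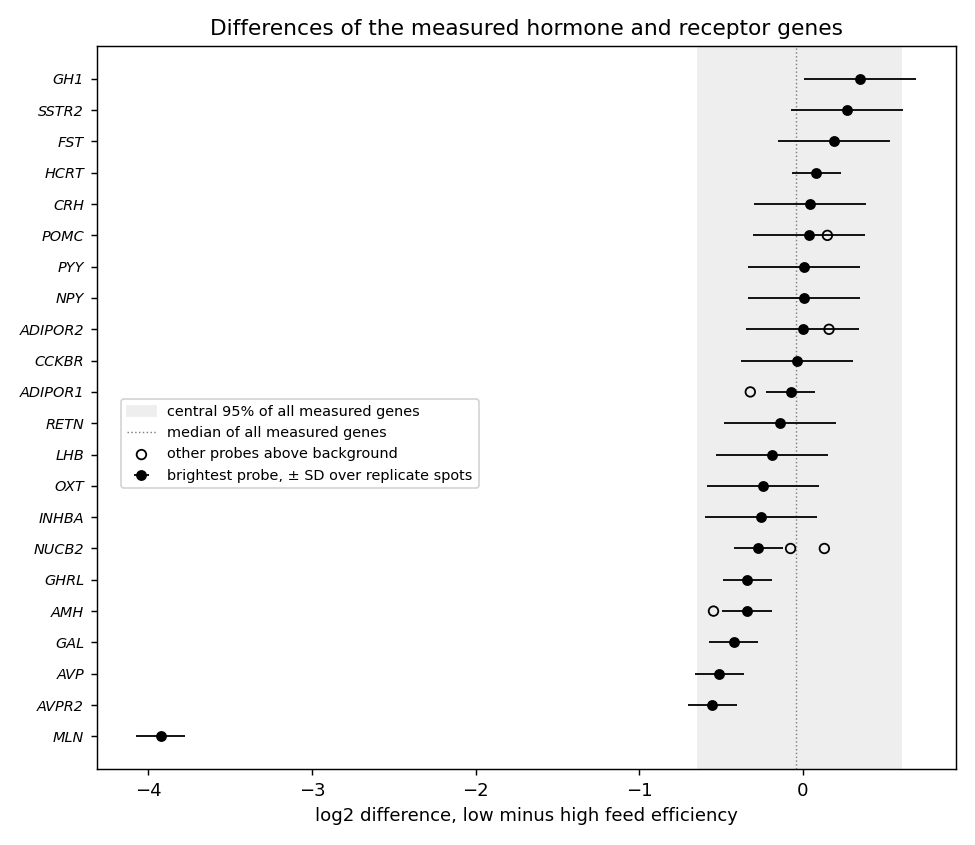
Log2 difference, low minus high feed efficiency, for the 22 measured genes, by the brightest probe (filled points, bars showing the SD over replicate spots, 0.15 for bright and 0.34 for dim probes) and by other probes above background (open points). The grey band holds the central 95% of all 10339 measured genes, -0.64 to 0.60; MLN at -3.93 is the 1 gene outside it.

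Where a gene had several probes above background, they gave a further check. Among 5 such members all probes lay on the same side of 0 for AMH, ADIPOR1 and POMC, and on both sides for NUCB2 and ADIPOR2. The gap between the lowest and highest probe ran from 0.11 for POMC to 0.40 for NUCB2. Over 4995 genes the median gap between the 2 brightest probes was 0.15, with a Pearson r of 0.36 across genes, which are not independent replicates.

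**Figure D5:**
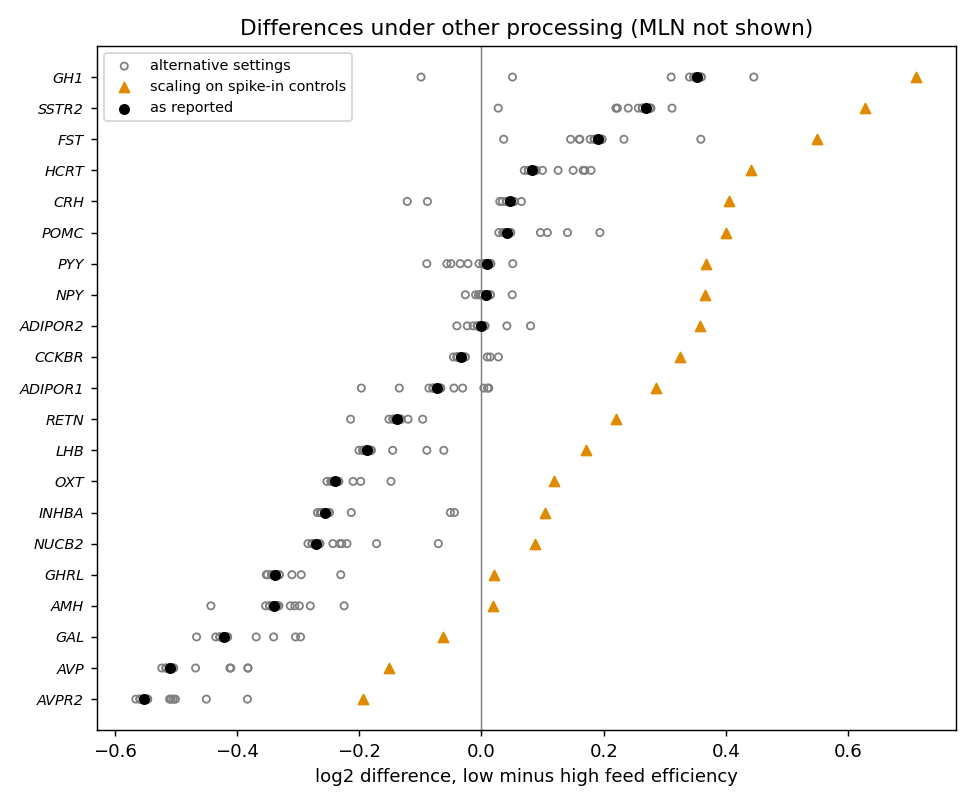
Log2 difference, low minus high feed efficiency, for the 21 measured genes other than MLN as reported (black), under spike-in scaling (orange triangles) and under the other alternatives (grey circles). Spike-in scaling moves every gene to the right by 0.36, and AVP, AVPR2 and GAL stay below 0 under each alternative shown that gave them a value.

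Other genes of these systems also differed by under 2-fold, by the brightest probe of each. Of 72 further peptide hormones and receptors, 65 had a probe and 18 were measured, none at least 2-fold apart, with a median of 0.01. Farthest from 0 were the melanocortin receptor MC1R (22 in low, 13 in high, 0.48) and the bombesin-like peptide NMB (457 in low, 526 in high, -0.48). The angiotensin receptor AGTR1 (5144 in low, 3491 in high, 0.28 with 4 probes between 0.06 and 0.28) and NUCB1, the relative of NUCB2 (2037 in low, 2326 in high, -0.47 with 4 probes between -0.47 and -0.17), were the brightest. Of 23 enzymes and proteins that process or degrade peptide hormones, 21 had a probe and 11 were measured. None of these was 2-fold apart, and their median was -0.10. PCSK1N, an inhibitor of prohormone convertase, read 919 in low against 1065 in high feed efficiency (-0.49), and the peptidase PREP 35 against 21 (0.46). The endothelin-converting enzyme ECE1 read 3049 against 2779 (-0.14) and the convertase PCSK7 2098 against 2129 (-0.30).

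Of 17 genes of activin and inhibin signalling, 16 had a probe and 6 were measured, none 2-fold apart, with a median of -0.02. SMAD4, the shared carrier of the signal, read 90 in low against 56 in high feed efficiency, with a difference of 0.41 and 3 probes between -0.18 and 0.41. SMAD3 read 35 against 22 (0.39), the activin binder FSTL3 242 against 242 (-0.27) and SMAD2 104 against 75 (0.20). Genes that carry the signal below the receptors were more widely detected, 25 of 29, again with none 2-fold apart and a median of -0.07. STAT5A, which relays prolactin and growth hormone signals, had -0.64 at 49 against 63, and APPL2, which binds adiponectin receptors, had 0.55 at 87 against 49. GNAS, the stimulatory G protein subunit, read 8685 against 7747 (-0.11) with 7 probes between -0.24 and 0.46, and the energy-sensing kinase gene PRKAA1 read 979 against 1072 (-0.41) with 4 probes between -0.97 and 0.26. The members of these 4 lists that were above background on both arrays were 27.7%, 52.4%, 37.5% and 86.2% of those with a probe, in the order given.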

How the data were processed

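RNA from whole blood carried Cy3 on an Agilent bovine array, per the labels. For each spot the deposited files give an intensity at 532 nm, the saturated pixels in percent and a score for its flag (100 good, 0 unflagged, -50 not found). The scanner was a GenePix 4000B and the software GenePix Pro 6.1.0.4, per the file headers; Agilent Feature Extraction is named in the submitters' processing notes. Both arrays were on 1 slide and in 1 scan. These files lack the Feature Extraction column first planned, so the pixel median less the background (25 on both arrays), per the file headers, took its place.

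Control spots, and spots flagged not found although bright (408 in low, 283 in high feed efficiency), were left out, which kept 43096 probes. Saturated spots were kept (7 and 1). Above background were 56.5% of probes on the low efficiency array, against 52.7% on the high efficiency one. Spots of a probe were averaged, and a gene was represented by the brightest of the probes that passed on both arrays. For a gene that passed on 1 array, the bound divides its scaled value by the lowest signal detected on the dim array, or by the probe's reading there where that was higher. The bound takes no account of error within an array. Probes were named through RefSeq accessions and the gene table of ARS-UCD2.0, used for names and gene order only: 26743 by accession, 5971 by symbol, 141 by synonym, 1662 by the array's name and 9136 not at all.

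The authors' deposited log2 table has a median of 4.34 in both columns and an unstated normalization. Its rows matched the scanner files after a move by 1 row (rank correlation 1.00 in both columns) and not as deposited (0.08 for low, 0.07 for high feed efficiency); it was used, moved, as an alternative.

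The members, lists and alternatives were chosen with earlier results of these data known. Named are every member above background on at least 1 array, the 5 brightest of the rest (extended here by ties and by other members below background), and in each list the 2 measured genes farthest from 0 and the 2 brightest. For marker lists, some of these are named, and other markers beside them. The scaling was tried on simulated data in which only brighter probes were given known folds. That trial does not bear on dim readings, which many members have. Normexp used limma 3.58.1 on the pixel mean, not the median, with an offset of 50. Loess used statsmodels 0.14.6, and the rest numpy 2.4.6 and pandas 2.3.3. The number of arrays limits the precision.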

Additional observations from a re-analysis of the deposited data

How the results depend on the processing

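No paired analysis was possible because each group has 1 array; leaving out a replicate or blocking on the slide was likewise not possible. The 22 genes above background on both arrays were between 18 and 23 under the 8 alternatives that bear on detection. With 5 robust SDs CRH and GH1 dropped to low feed efficiency alone, and with 2 INSL3 joined. The 5 genes above background in low feed efficiency alone became 3 with normexp and with the pixel mean. There NPY1R no longer passed, and the brighter SST probe was left out. Its high feed efficiency spot, flagged not found, then exceeded the limit, and such spots were removed. The 5 became 3 with 5 robust SDs (PRL, CRH and GH1), and 0 with only spots flagged good. With 2 robust SDs the same SST probe was left out for the same reason, and AGRP and GHRHR entered. The 1 in high feed efficiency alone became 0 with 5 robust SDs and with only good spots. The 28 on neither array became 0 with only good spots, since that choice removes dim spots.

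The median difference of -0.11 became 0.25 with spike-in scaling. Without a filter on dim probes, 7 members were at least 2-fold higher and 4 lower, all but MLN from probes below background on at least 1 array. With only good spots the count of members 2-fold lower was 0, since MLN had no value. MLN stayed at least 2-fold lower under the 14 alternatives that measured it, from -6.49 to -3.57. No other gene among the 22 measured on both arrays reached 2-fold under any alternative, the missing filter included. The 4 members beyond 2 replicate-spot SDs were 8 by the median SD, an alternative chosen after seeing the data, and 2 with only good spots, which left GAL and MLN without a value. Of 324 single values under alternatives, 296 moved by less than the replicate-spot SD; 22 of the other 28 were those of spike-in scaling. Over all genes the 38 higher and 59 lower were 68 and 89 with the pixel mean, 214 and 20 with spike-in scaling, 17 and 38 with 5 robust SDs, 62 and 92 with 2, 831 and 906 with no filter, and 9 and 13 with good spots.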

Other observations

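The authors' deposited table pairs these genes with values of other probes. As deposited, its row for the MLN probe holds 2.85 in low against 2.06 in high feed efficiency, and after the move by 1 row it holds 5.65 and 9.25, a difference of -3.60. For the bright AVP probe the authors' deposited table has 6.62 and 6.68 as deposited, and 13.04 and 13.45 after the move. Of 75 member probes below background on both arrays, 38 stand above the table's median of 4.34 in both columns of the authors' deposited table as deposited, and 0 after the move. Of the 22 probes that gave the values reported here, 7 are at least 2-fold apart in the authors' deposited table as it stands, and 1, MLN, after the move.

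Some measured hormone and receptor genes lie next to genes active in blood in the gene order of ARS-UCD2.0, and these neighbours were chosen after their values were seen. LHB lies beside RUVBL2, which read 12053 in low against 13956 in high feed efficiency with a difference of -0.49, where LHB had -0.19. AMH lies beside the splicing factor gene SF3A2, which read 342 against 408 with a difference of -0.53, where AMH had -0.34 and -0.54. AVPR2 lies beside ARHGAP4, which read 802 against 723 with a difference of -0.13, where AVPR2 had -0.55. GH1 lies beside the B cell receptor gene CD79B, at 223 against 218 with -0.24, where GH1 had 0.35. The other neighbours of AMH, GH1 and AVPR2 were not above background on both arrays. JSRP1 by AMH and TCAM1 by GH1 were below background, and L1CAM by AVPR2 passed in high feed efficiency alone. Beside MLN, which had -3.93, LEMD2 had 0.02. Beside GAL, which had -0.42, PPP6R3 had 0.25 and TESMIN was below background. Other members too had neighbours above background on both arrays. FBXL14 by ADIPOR2 read 7127 in low against 8341 in high feed efficiency with -0.50, where ADIPOR2 had -0.0007. MRPS26 by OXT read 3483 against 2843 with 0.02, where OXT had -0.24. SEC13 by GHRL read 2067 against 1922 with -0.17, where GHRL had -0.34. Not every such neighbour is named here. What part a neighbour has in these readings was not tested.

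Among enteroendocrine markers, 5 of the 10 with a probe were measured, and GHRL and PYY, described above, are 2 of these. INSM1, a transcription factor of endocrine cells, read 1471 in low against 1697 in high feed efficiency, a difference of -0.48. This was its 1 probe above background on both arrays. NEUROD1 was near the limit at 20 against 17 and CHGA, the granule protein chromogranin A, at 18 against 16. CHGB, TPH1, SCG3 and GIP were below background on both arrays, and CCK passed in low feed efficiency alone.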
